A study of Arabidopsis thaliana with 6 samples.

Results

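The SNC1/RPP4/RPP5 receptor gene cluster of Arabidopsis thaliana is a row of genes on chromosome 4 that encode intracellular immune receptors. The members were the 7 probe sets whose locus code was AT4G16860 (RPP4), AT4G16890 (SNC1), AT4G16900, AT4G16920, AT4G16940, AT4G16950 (RPP5) or AT4G16960, out of 27827 probe sets in all, and each locus had 1 probe set. The rule that names them uses gene family and position. The cluster and the gene lists were chosen with earlier results of these data known, so counts in them beside shares of all genes are description only. The reference gene table gives a symbol to RPP4, SNC1 and RPP5, and the other 4 members are called by their locus codes. Transcript levels were measured on 6 arrays of total RNA from whole seedlings, 3 of Col-0, the wild-type accession, and 3 of the naa20-1 mutant, in which, per the series' design text, the catalytically active NatB subunit is depleted. All seedlings were 17 days old, received no treatment and grew on MS medium under short days of 8.5 h light. The labels give 1 mutant allele and no complemented line, and they do not say how the allele alters the gene.

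Receptors of this class carry a TIR domain at the N-terminus, a nucleotide-binding domain and leucine-rich repeats, and are called TIR-type NLRs. They detect pathogen effector proteins inside the cell and signal through EDS1 and its partners and through helper NLRs, which leads to salicylic acid signalling and local cell death. RPP4 and RPP5 are named for recognition of the downy mildew pathogen, formerly Peronospora parasitica, and RPP5 was first described from another accession, Landsberg erecta. SNC1 is known for the mutant snc1, in which the receptor is overactive and defence is switched on without a pathogen. The SNC1 protein is a reported target of N-terminal acetylation, in which NatA and NatB, the enzymes that acetylate different protein N-termini, were reported to have opposite effects on its stability. The arrays measured transcripts only and hold no value for the SNC1 protein.

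Values are log2 expression after RMA, a method that subtracts background, gives all arrays the same distribution and condenses several probes into 1 value, and a difference is naa20-1 minus Col-0. The test was limma's, two-sided, with p-values adjusted by Benjamini-Hochberg for 27241 genes, and an adjusted p under 0.05 counted as a call. Every array had a median of 6.12 and a 25th percentile of 3.72, and no detection calls are given, so a probe set under 3.72 may be background. The number of arrays limits the precision. Since the labels do not name separate cultures for the 3 samples of a group, p-values reflect no more than how these samples varied, and that variation may be technical. In seedlings, fewer cells of a type and less RNA per cell cannot be told apart. NAA20 (AT1G03150, a name assigned from general knowledge of the locus) read 8.79, 8.75 and 8.72 in Col-0 and at 8.10, 7.60 and 7.36 in naa20-1, lower on every naa20-1 array as labelled (difference -1.07, SE 0.18, adjusted p = 0.0407). The NAA20 call held in 1 of 6 fits with a sample left out (adjusted p = 0.0181 without naa20-1 replicate 1, up to 0.135 otherwise) and was lost with the replicate block (adjusted p = 0.0543). The other 3 NatB and NatA subunits (NAA25, NAA10 and NAA15) had differences of 0.09, 0.26 and -0.02, and none was called.

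In naa20-1, 1 of the 7 cluster genes, RPP4, was called lower, 0 were called higher and 6 did not pass the test. Of all genes tested, 1.15% were called, 0.767% lower and 0.382% higher. The 3 naa20-1 values lay below all 3 Col-0 values in 4 members (RPP4, SNC1, AT4G16900 and RPP5) and above them in 0, while 10.5% of all genes tested were separated downward and 10.6% upward. The same 4 members were those with an unadjusted p under 0.05 and a difference below 0, which 7.19% of all genes had (7.02% had one above 0). The difference was below 0 in 6 of 7 members, as in 48.8% of all genes, and the median over the members was -0.27 against 0.01 over all genes tested.

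**Figure D1:**
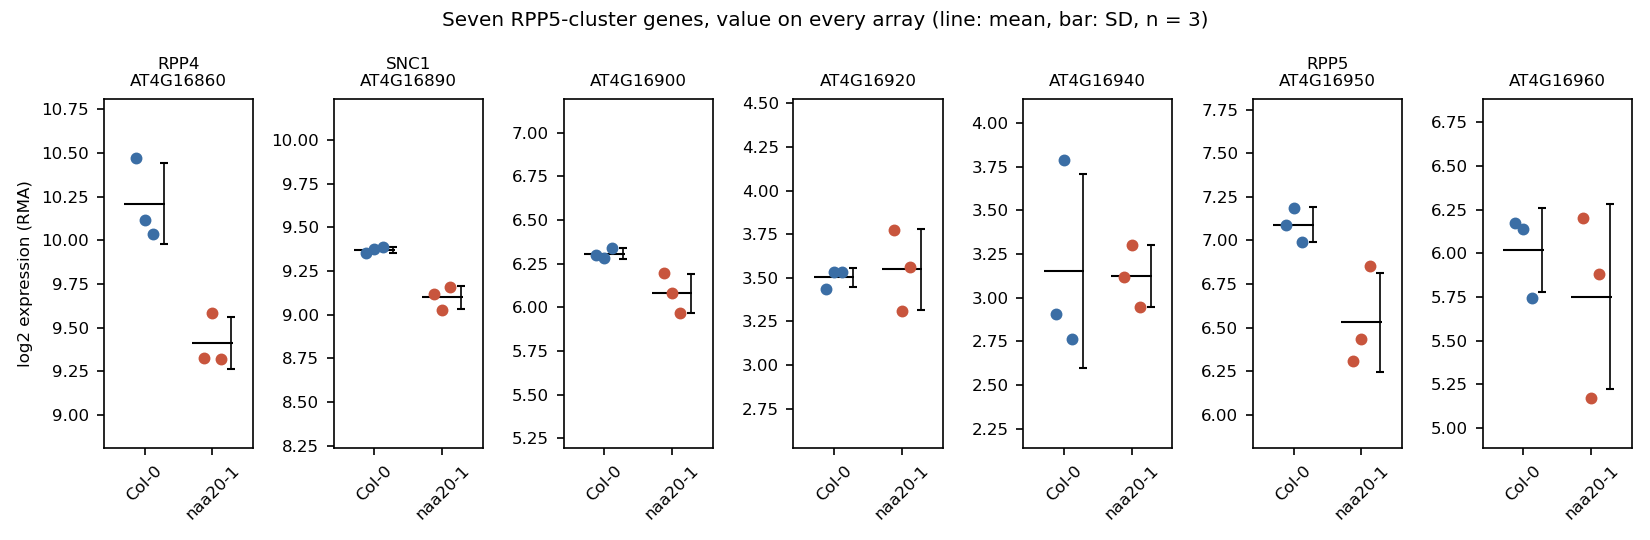
Log2 expression (RMA) of the 7 cluster genes on each array, with 1 panel per gene, each spanning the same number of log2 units, and blue points for Col-0 and red points for naa20-1. Horizontal lines are group means and bars are SDs over 3 arrays; the groups are separate for RPP4, SNC1, AT4G16900 and RPP5 and overlap for the other 3 members.

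RPP4, a receptor for downy mildew recognition, had the largest fall of the cluster. The Col-0 arrays gave 10.47, 10.12 and 10.04, and the naa20-1 arrays 9.33, 9.59 and 9.32. The highest naa20-1 value, that of replicate 2, was below the lowest Col-0 value, that of replicate 3. Means of 10.21 ± 0.23 for Col-0 and 9.41 ± 0.15 for naa20-1 (SD, n = 3 each) differed by -0.80 (SE 0.14, 95% interval -1.12 to -0.47), or 1.74-fold lower in naa20-1. The limma adjusted p was 0.0498, directly under the threshold. From the Col-0 mean, naa20-1 replicates 1, 2 and 3 differed by -0.88, -0.62 and -0.89. In the ranking of all 27241 genes by p RPP4 came at 312, and 313 genes were called. The RPP4 call was lost when any single sample was left out (adjusted p from 0.0831 to 0.134, differences from -0.88 to -0.67). It was also lost with the replicate number as a block (adjusted p = 0.104) and with the unmatched probe sets kept in the adjustment (adjusted p = 0.0521).

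SNC1, the receptor with the reported N-terminal acetylation, showed a small and even difference that did not pass the test. Col-0 replicates 1 to 3 had values of 9.35, 9.38 and 9.39, and naa20-1 replicates 9.12, 9.03 and 9.16. All Col-0 values lay above all naa20-1 values, with a gap between the groups wider than the range within either. The means were 9.37 ± 0.02 and 9.10 ± 0.07 (SD, n = 3 each), a difference of -0.27 (SE 0.08, 95% interval -0.46 to -0.08) or 1.21-fold lower in naa20-1. The adjusted p was 0.190, against an unadjusted limma p of 0.0112. The residual SD of SNC1, 0.05, was among the smallest of the table, at percentile 4.3 of all genes tested. The interval leaves room for a difference of up to -0.46, or as small as -0.08, so these arrays neither call SNC1 lower nor show that its transcript was the same in both genotypes.

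RPP5, named for the downy mildew receptor of Landsberg erecta, had the second largest difference of the cluster. Its values were 7.09, 7.19 and 6.99 on the Col-0 arrays, against 6.31, 6.44 and 6.85 on the naa20-1 arrays. The groups did not overlap, but naa20-1 replicate 3 lay close to the Col-0 values while replicates 1 and 2 lay well below them. The means were 7.09 ± 0.10 and 6.53 ± 0.28 (SD, n = 3 each), a difference of -0.56 (SE 0.15, 95% interval -0.90 to -0.21, 1.47-fold lower) that was not called (adjusted p = 0.150). Without naa20-1 replicate 3 the difference was -0.72 and passed the test (adjusted p = 0.0483). In that same fit RPP4 did not pass (adjusted p = 0.129).

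AT4G16900, a TIR-type NLR gene with no symbol in the reference table, stood at 6.30, 6.28 and 6.34 in Col-0 and at 6.19, 6.08 and 5.97 in naa20-1. The groups did not overlap, with naa20-1 replicate 1 closest to the Col-0 values and replicate 3 farthest from them. The difference was -0.23 (SE 0.09, 95% interval -0.44 to -0.01) and was not called (adjusted p = 0.318).

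AT4G16960 varied more between samples than between genotypes. It stood at 6.17, 6.14 and 5.74 in Col-0 and at 6.20, 5.17 and 5.88 in naa20-1. The highest and the lowest value of the 6 both came from naa20-1, from replicates 1 and 2. Its difference was -0.27 (SE 0.26, 95% interval -0.87 to 0.33, adjusted p = 0.701), nearly the same size as that of SNC1, but its residual SD of 0.41 was at percentile 97.5 of all genes. Without naa20-1 replicate 2 its difference turned to 0.02.

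AT4G16920 and AT4G16940 may be at background, since both group means of each lay under 3.72. AT4G16920 stood at 3.44, 3.54 and 3.53 in Col-0 and at 3.77, 3.31 and 3.56 in naa20-1. The naa20-1 values lay on both sides of the Col-0 values, and the difference was 0.05 (SE 0.13, 95% interval -0.25 to 0.34, adjusted p = 0.910). AT4G16940 stood at 2.91, 3.79 and 2.77 in Col-0 and at 3.12, 3.30 and 2.95 in naa20-1. Col-0 replicate 2 was higher than the other 5 arrays, and the naa20-1 values fell inside the Col-0 range (difference -0.03, SE 0.26, 95% interval -0.63 to 0.57, adjusted p = 0.976). The direction of AT4G16940 turned to 0.29 without Col-0 replicate 2 and to 0.06 without naa20-1 replicate 3, and that of AT4G16920 turned to -0.07 without naa20-1 replicate 1. An array cannot show a difference in a transcript that lies at background.

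No array was high or low for all members. Taken from the mean of its own group, naa20-1 replicate 2 was above it for RPP4 (0.17) and below it for SNC1 (-0.07), RPP5 (-0.10) and AT4G16960 (-0.58). Naa20-1 replicate 3 was above it for RPP5 (0.32) and SNC1 (0.06) and below it for RPP4 (-0.09) and AT4G16900 (-0.11). Naa20-1 replicate 1 was the one array with values of finer resolution (27643 distinct values against 10229 on each of the others), and its sorted values departed from theirs by at most 0.0019. Without it, the differences were -0.75 for RPP4, -0.28 for SNC1 and -0.45 for RPP5.

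Genes of this cluster arose by duplication and resemble each other in sequence, so probes of a member may bind transcripts of another, and the value of every member is uncertain as to which copy it measures. The sources used here do not give the probes of each probe set, and how much signal is shared was not tested. The log2 gap between 2 members on the same array shows whether their probe set values changed by unequal amounts. With shared signal possible, it does not show this for the transcripts. Such gaps were compared for RPP4, SNC1 and RPP5, 3 pairs chosen after their values were seen. The gap of RPP4 to SNC1 was 1.12, 0.74 and 0.65 on the Col-0 arrays, and 0.21, 0.56 and 0.17 on the naa20-1 arrays. It was smaller on every naa20-1 array than on every Col-0 array, by 0.53 on average. The exact permutation test gave p = 0.10 (two-sided, 0.30 after Benjamini-Hochberg over the 3 pairs), which is the smallest p that this test can give with 3 against 3, so it cannot pass a threshold of 0.05. Leaving out single samples moved this difference from -0.53 to between -0.65 and -0.38. The gap of SNC1 to RPP5 differed between genotypes by 0.29 (exact permutation p = 0.20, adjusted 0.30) and that of RPP4 to RPP5 by -0.24 (exact permutation p = 0.50, adjusted 0.50), and in both pairs 1 or more naa20-1 values lay within the Col-0 range. The difference of SNC1 to RPP5 was 0.17 without naa20-1 replicate 1 (0.42 without replicate 3), and that of RPP4 to RPP5 was -0.04 without naa20-1 replicate 3, -0.11 without Col-0 replicate 1 and -0.37 without naa20-1 replicate 2.

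The locus codes from AT4G16830 to AT4G17010 hold 15 other measured genes, which lie between or beside the members in the order of the reference gene table. Whether their probe sets share signal with the members was not tested. Of these 15, 1 was called lower, 0 higher and 14 were not called (0.767% of all genes were called lower). Separated downward were 3 of the 15, and 0 upward, against 10.5% and 10.6% of all genes. The median difference of the 15 was 0.02, and it had no stable direction: it was -0.03, -0.02 and -0.04 without Col-0 replicate 1, 2 or 3 and -0.09 without naa20-1 replicate 1. The called neighbour was AT4G16892, a non-coding RNA gene that follows SNC1 in the order of measured genes. Its values were 4.001, 3.73 and 4.12 for Col-0, and 3.19, 3.14 and 3.16 for naa20-1. All Col-0 values lay above all naa20-1 values (difference -0.78, SE 0.11, adjusted p = 0.0264). The naa20-1 mean of 3.17 was under the table's 25th percentile, so the size of this fall is uncertain. The call held without Col-0 replicate 2 (adjusted p = 0.0333), and without any other single sample (adjusted p up to 0.101) or with the replicate block (adjusted p = 0.0560) it was lost.

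RLM3, a TIR-domain gene of resistance to the fungus Leptosphaeria maculans, lies beyond the last member and was also separated. It stood at 10.11, 10.09 and 10.11 in Col-0 and at 9.80, 9.69 and 9.43 in naa20-1 (difference -0.46, SE 0.11, adjusted p = 0.120). AT4G16855 differed by -0.48 (SE 0.12, adjusted p = 0.140) with both means under the 25th percentile, and AT4G16880, between RPP4 and SNC1, by -0.60 (SE 0.22, adjusted p = 0.280) with overlapping groups.

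Set in chromosomal order, the 6 measured genes from AT4G16855 to AT4G16900 (AT4G16855, RPP4, AT4G16880, SNC1, AT4G16892 and AT4G16900) all had 95% intervals below 0, a stretch singled out after the values were seen. Such an interval amounts to an unadjusted p under 0.05 with a lower value, found in 7.19% of all genes. Since probe sets of this region may share signal, which was not tested, the 6 intervals need not be separate observations. The next 4 measured genes, AT4G16915, AT4G16920, AT4G16930 and AT4G16940, had differences from -0.03 to 0.07, and both group means of each lay under the 25th percentile. Of the 6 genes before them, RPP4, AT4G16880, SNC1 and AT4G16900 had both means above that percentile. Beyond them, RPP5 (-0.90 to -0.21) and RLM3 (-0.72 to -0.21) also had 95% intervals below 0. Those of AT4G16960, AT4G16970, AT4G16980, AT4G17000 and AT4G17010 spanned 0.

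**Figure D2:**
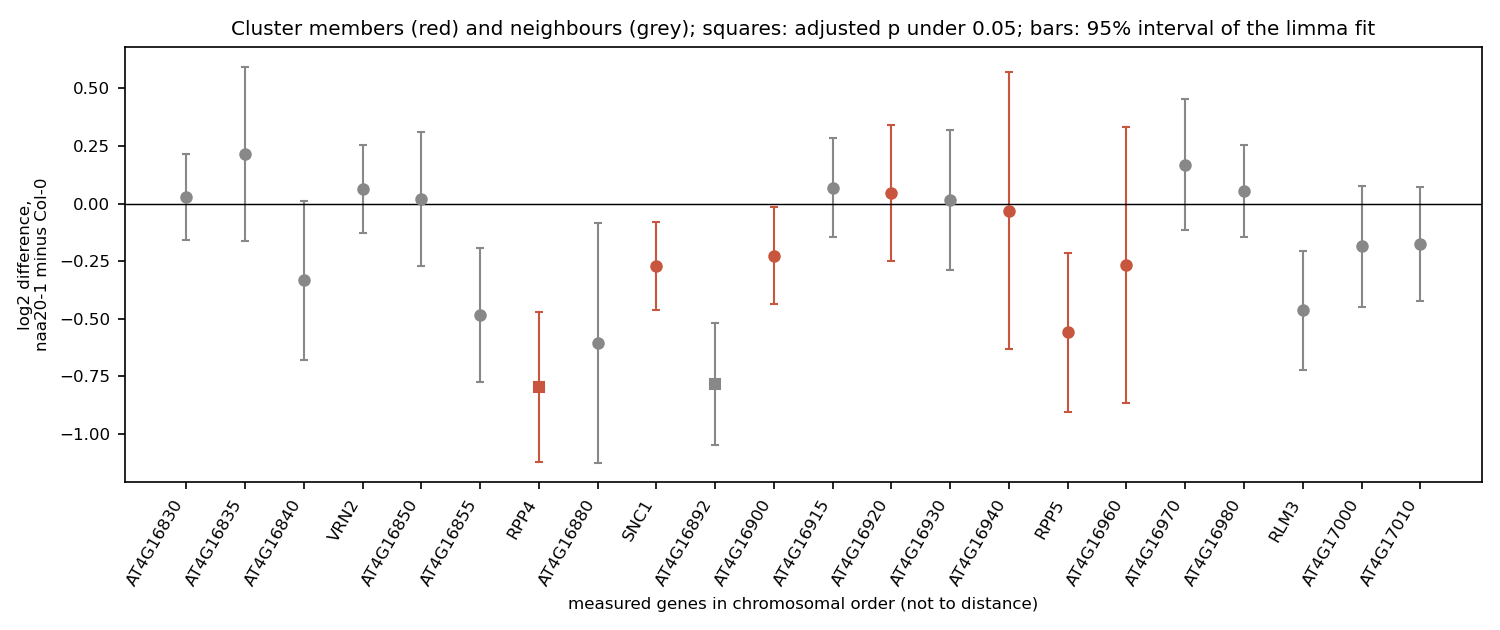
Log2 difference (naa20-1 minus Col-0) of the 7 members (red) and 15 neighbours (grey) in the order of the reference gene table, spaced evenly and not by distance; bars are 95% intervals of the limma fit and squares mark adjusted p under 0.05. RPP4 and AT4G16892 are the 2 squares, at -0.80 and -0.78, and the stretch from AT4G16915 to AT4G16940 lies near 0.

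Differences of the TIR-type NLR genes listed from elsewhere in the genome were mostly below 0 as well. The 21 listed genes were chosen from general knowledge and need not stand for the whole class. Of these 21, 1 was called lower, 0 higher and 20 were not called (0.767% of all genes were called lower). Separated downward were 12, and 0 upward, against 10.5% and 10.6% of all genes. The difference was below 0 in 20, as in 48.8% of all genes, and the median was -0.22, against -0.27 for the cluster. The called gene, AT1G17600, fell from 5.49 ± 0.20 to 4.65 ± 0.10 (SD, n = 3 each; difference -0.84, SE 0.12, adjusted p = 0.0277), and its call was lost without any single sample (adjusted p from 0.0561 to 0.0964) and with the replicate block (adjusted p = 0.0782). Of 10 listed coiled-coil NLR genes, of the class without a TIR domain, 0 were called by limma. An unadjusted p under 0.05 with a lower value was found in 3, against 7.19% of all genes. All 10 differences were below 0 (median -0.19). The smallest p-values were those of AT1G58602, at -0.37 (SE 0.09, adjusted p = 0.123), and LOV1, at -0.29 (SE 0.11, adjusted p = 0.292) with a naa20-1 mean under the 25th percentile. No test here sets the cluster apart from other NLR genes.

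The partners through which TIR-type NLRs signal were not called. Of 9 genes, 0 were called by limma. An unadjusted p under 0.05 with a difference below 0 was found in 3, against 7.19% of all genes. The median of the 9 was -0.08 (-0.12 without Col-0 replicate 2 and -0.18 without naa20-1 replicate 3). EDS1, the lipase-like protein at the centre of TIR-type NLR signalling, stood at 7.37 ± 0.12 in Col-0 and 6.99 ± 0.19 in naa20-1 (difference -0.38, SE 0.12, adjusted p = 0.214). ADR1-L1, a helper NLR, stood at 7.80 ± 0.03 and 7.47 ± 0.11 (difference -0.33, SE 0.09, adjusted p = 0.154). Of the 9, 3 were separated downward, EDS1 and ADR1-L1 among them, and 0 upward, against 10.5% and 10.6% of all genes.

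Of 28 genes known as regulators of SNC1 (the MOS genes found as suppressors of snc1, the MOS4-associated complex, chromatin factors, chaperones, and factors that limit SNC1 such as CPR1, SRFR1 and BON1), 0 were called by limma, 3 had an unadjusted p under 0.05 and were lower and 1 was higher. The median was -0.08, and 9 were separated downward and 1 upward. Of all genes tested, 7.19% were lower and 7.02% higher at an unadjusted p under 0.05, and 10.5% were separated downward and 10.6% upward. CDC5, a Myb-type protein of the MOS4-associated complex, stood at 9.22 ± 0.13 and 8.84 ± 0.01 (difference -0.38, SE 0.09, adjusted p = 0.126). BON1, a copine whose loss is known to raise SNC1 transcript, stood at 6.90 ± 0.15 and 6.38 ± 0.31 (difference -0.52, SE 0.16, adjusted p = 0.209).

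Genes of salicylic acid synthesis and output, which are known to rise when SNC1 is overactive, held 2 called genes of 10. Both were lower, as were 0.767% of all genes, with 0 higher and 8 not called. The median was -0.14. It was -0.03 with the dimmest 40% of probe sets left out, but that filter removed FMO1, 1 of the 2 called genes, and PBS3 and SARD1. PBS3 and SARD1 had separated groups and differed by -1.13 and -0.85 (adjusted p = 0.154 and 0.130, not called). Of the 10 differences, 2 were above 0. CBP60G, which activates genes of salicylic acid synthesis, differed by -1.29 (SE 0.19, adjusted p = 0.0289), and FMO1, of N-hydroxypipecolic acid synthesis, by -1.16 (SE 0.16, adjusted p = 0.0225). Both calls depended on single samples: CBP60G was called in 1 of 6 fits with a sample left out and FMO1 in 2 of 6. With the replicate block CBP60G was not called (adjusted p = 0.0832) and FMO1 was (adjusted p = 0.0169). The pathogenesis-related genes PR1, PR2 and PR5, singled out after their values were seen, had Col-0 means of 2.47, 2.51 and 3.10 and naa20-1 means of 2.24, 2.46 and 3.41. All 6 of these means lay under the 25th percentile, so the marker transcripts of an active SNC1 response were dim in both genotypes.

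**Figure D3:**
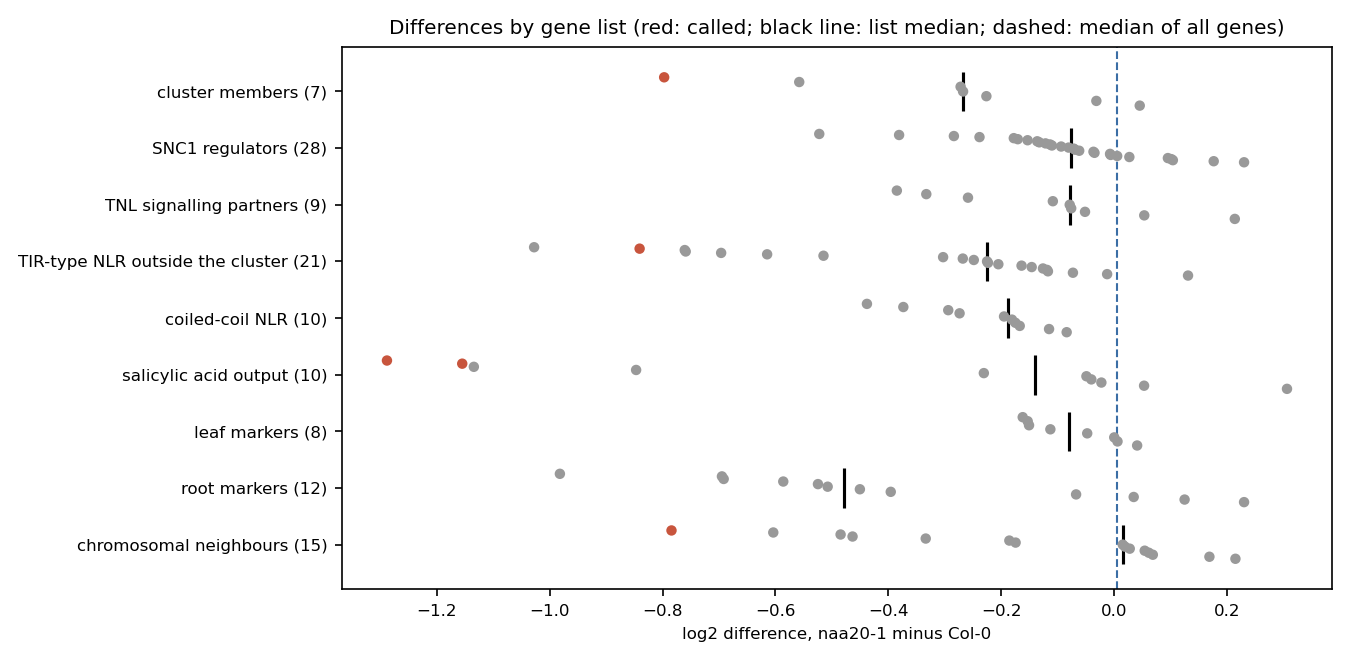
Log2 difference (naa20-1 minus Col-0) of each gene in the cluster, in the neighbouring loci and in 7 gene lists, with the number of genes tested in brackets; red points were called, black lines are list medians and the dashed line is the median of all genes tested, 0.01. The medians are -0.27 for the cluster, -0.22 for the other TIR-type NLR genes listed and -0.48 for root markers.

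Differences were below 0, like those of the cluster, for most root markers, chiefly genes of the Casparian strip. Of 12 root markers 0 were called by limma. An unadjusted p under 0.05 with a lower value was found in 8, against 7.19% of all genes. Separated downward were 8, and 0 upward, against 10.5% and 10.6% of all genes. The median difference of the 12 root markers was -0.48. Their mean log2 level ranged from 6.98 to 7.04 on the Col-0 arrays and from 6.55 to 6.73 on the naa20-1 arrays. The tonoplast aquaporin TIP2;3 differed by -0.69 (SE 0.12, not called, with an adjusted p just above the threshold) and ESB1, a Casparian strip protein, by -0.52 (SE 0.10, adjusted p = 0.0687). The 8 lower ones were CASP1 to CASP5 and ESB1, of the endodermal Casparian strip, TIP2;3 and PRP3. PRP3, a root hair gene, differed by -0.45 (SE 0.13, adjusted p = 0.172). The other 4 had overlapping groups. COBL9 and EXPA7, root hair genes like PRP3, differed by 0.04 and -0.07. MYB36, a regulator of Casparian strip genes, differed by 0.13, and WOX5, of the root stem cell niche, by 0.23. Of the 12, MYB36 alone had both means under the 25th percentile. The 8 leaf markers, which belong to the labelled seedling tissue, had a mean log2 level of 11.53 to 11.58 in Col-0 and 11.45 to 11.51 in naa20-1, with a median difference of -0.08 (-0.05 without naa20-1 replicate 1), 0 called by limma and 0 with an unadjusted p under 0.05. Of these 8, RCA, GAPA and LHCB4.1 were separated downward and 0 upward, against 10.5% and 10.6% of all genes. GAPA, a chloroplast enzyme of carbon fixation, differed by -0.15 (SE 0.08, adjusted p = 0.466) and LHCB4.1, a light-harvesting protein, by -0.11 (SE 0.08, adjusted p = 0.574). The part of tissue make-up in the differences of RPP4, SNC1 and RPP5 was not tested.

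The genes whose profile over the 6 arrays was most like that of SNC1 and of RPP4 were named by the root mean square distance between profiles, each gene taken from its own Col-0 mean, among 13724 genes with a mean above the table's median. Nearest to SNC1 were AT3G59080 (distance 0.02), the APR-like gene APRL4 (0.02), the basic chitinase gene HCHIB (0.02), also named PR3, and the light-harvesting gene LHCB2.3 (0.03). These 4 differed by -0.28, -0.30, -0.25 and -0.31 and, like SNC1, none was called (adjusted p from 0.150 to 0.216). They were picked for likeness to SNC1, so similar differences and order of arrays follow from the choice. HCHIB stood at 11.16, 11.23 and 11.22 in Col-0 and at 10.94, 10.91 and 11.01 in naa20-1, separate groups with the lowest value in naa20-1 replicate 2, as for SNC1.

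Nearest to RPP4 were AT5G39020 (distance 0.12), GH9B13, of a glycosyl hydrolase family (0.13), AT1G21050 (0.13) and AT3G54040 (0.14). All 4 were called lower, by -0.74, -0.89, -0.73 and -0.83 (adjusted p = 0.0225, 0.00861, 0.0203 and 0.0345). GH9B13 stood at 10.40, 10.36 and 10.24 in Col-0 and at 9.37, 9.52 and 9.43 in naa20-1, with replicate 2 highest in naa20-1 and replicate 3 lowest in Col-0, as for RPP4. Its call held in 5 of 6 fits with a sample left out. AT5G39020 and AT1G21050 were called in 0 of 6 and AT3G54040 in 1 of 6. With the replicate block AT5G39020 (adjusted p = 0.0551) and AT1G21050 (adjusted p = 0.0532) were not called. As for SNC1, the genes were picked for likeness to RPP4, so similar differences, separated groups and order of arrays follow from the choice. Likeness of profile over 6 arrays also says nothing of shared control.

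**Figure D4:**
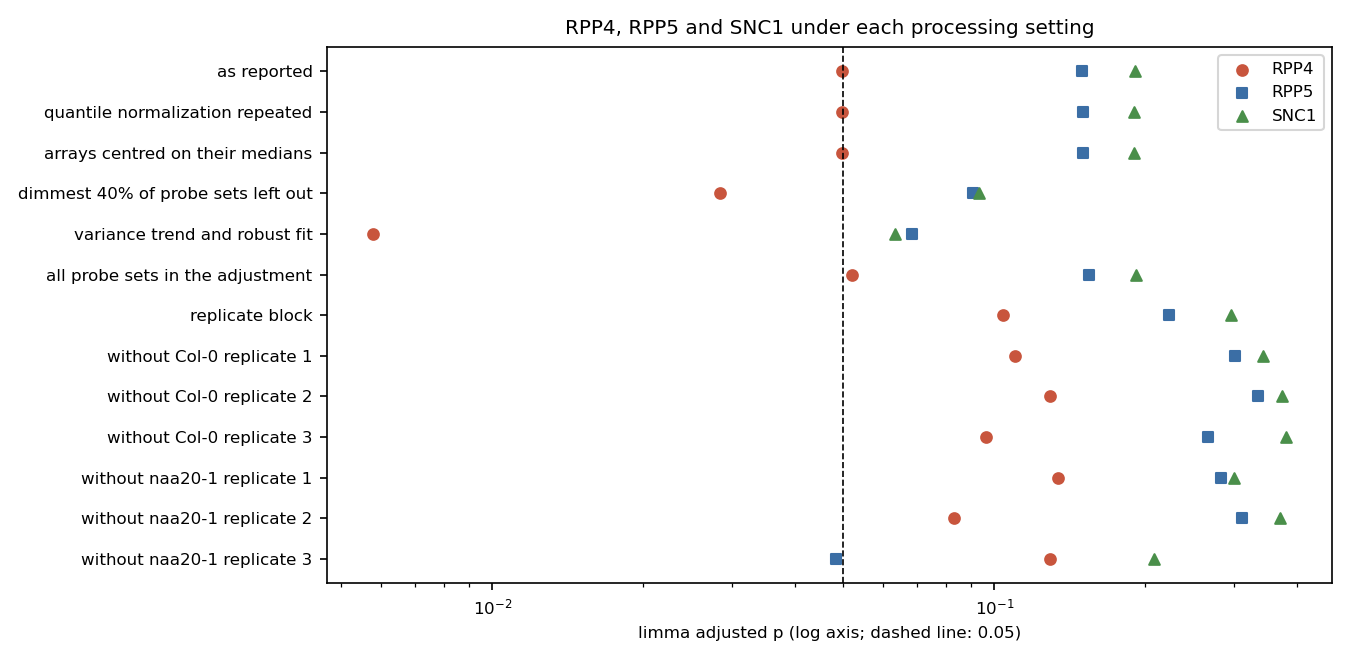
Limma adjusted p (log axis) of RPP4, RPP5 and SNC1 as reported and under each of 12 other settings, with the 0.05 threshold as a dashed line. RPP4 lies at 0.0498 as reported and above the line in all 6 fits that leave out a sample, RPP5 is below it once, without naa20-1 replicate 3, and SNC1 is above it in every setting shown.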

How the data were processed

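Per the submitters' processing notes, the authors used RMA, and the deposited values are on the log2 scale. Per the labels' protocols, biotin-labelled cRNA was prepared by the standard Affymetrix procedure. Array type, probe set definition and software: not given in the sources used here. Replicate numbers came from the sample titles. Names and gene order were taken from a RefSeq gene table (assembly TAIR10.1), whose locus tags matched 27241 of 27827 probe sets, and the other 586 were not tested. Genotype was the only term of a limma 3.58.1 fit (lmFit, eBayes; R 4.3.3) over the whole table. The procedure was tested on simulated data.

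The members and gene lists were chosen with earlier results of these data known. List membership rests on general knowledge of the genes. Genes named were all members and the NatB and NatA subunits, up to 4 neighbours, up to 4 called members of each list (otherwise the 2 with the smallest p), and the 4 genes of most similar profile to SNC1 and to RPP4. Some further neighbours, and salicylic acid, root and leaf genes, are named beside these. Lists covered SNC1 regulators, signalling partners, other NLR genes, salicylic acid, leaf and root markers. Alternatives were repeated quantile normalization, centring on medians, removal of the dimmest 40% of probe sets, a variance trend with robust fit, all probe sets kept, a replicate block, and each sample left out. Sequences of the members were not analysed here.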

Additional observations from a re-analysis of the deposited data

How the results depend on the processing

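RPP4, SNC1, RPP5 and AT4G16900 kept a difference below 0 under all 12 alternatives, which could not have come out otherwise. Their groups did not overlap, so leaving out a single sample could not turn the sign. The other settings left the differences almost unchanged and bore on the adjusted p only. RPP4 was still called with repeated quantile normalization, median centring, the dimmest 40% removed and a variance trend with robust fit. It was not called with all probe sets kept (difference -0.80, 0 members called) or with the replicate block (difference -0.80, adjusted p = 0.104, 0 members called), and the block changed no other member's call. The labels do not say what same-numbered samples share. Their deviations correlated by 0.01 to 0.06 across genes, against -0.05 to 0.02 for samples with unlike numbers. Naa20-1 replicates 1 and 2 correlated best with the Col-0 sample of their own number, and naa20-1 replicate 3 with Col-0 replicate 1. Whether the numbers mark pairs is not known. Leaving out single samples gave 0 to 1 members called lower (the 1 was RPP5, without naa20-1 replicate 3) and 0 called higher. The differences then ranged from -0.88 to -0.67 for RPP4, -0.30 to -0.24 for SNC1, -0.72 to -0.45 for RPP5, -0.28 to -0.17 for AT4G16900, -0.0665 to 0.164 for AT4G16920, -0.226 to 0.287 for AT4G16940 and -0.493 to 0.0239 for AT4G16960, the last 3 of which turned direction. Over all genes, 209 lower and 104 higher became 486 and 311 with the variance trend and robust fit, 129 and 61 with the replicate block, and 51 to 134 and 11 to 63 with single samples left out, where fewer samples entered the fit. The median of the cluster ranged from -0.30 to -0.23 over the alternatives. For the other changes the cause was not tested. Signal over background limits AT4G16920 and AT4G16940, whose means lay under the 25th percentile.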
